A study of Homo sapiens with 4 samples.

Results

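The genes described here encode human factors that start and extend protein synthesis, and other proteins whose gene symbols begin alike. They were taken as the protein-coding genes whose symbols begin EIF1 to EIF6, EEF1 or EEF2, without the EIF2AK kinases. By this rule the eIF4E repressors, the kinase EEF2K and the methyltransferases of eEF1A and eEF2 count as factor genes below. RefSeq lists 66 such genes, and 65 were found by position among the 60554 genes of the deposited count table. Of these 65, 58 reached the mean normalised count of 50 below which no ratio was read, as did 12662 genes in all. The study looked for RNAs bound by the microRNA miR-491-5p in IGROV1-R10, a human ovarian carcinoma line. Cells were given 60 nM of either biotin-tagged miR-491-5p or, as control, a tagged worm microRNA, cel-miR-65. Nuclei were removed from the lysate, 10% was set aside as input, and the pull-down is what streptavidin beads kept of the remainder after 4 h and 5 washes. The 4 groups are therefore the miR-491-5p pull-down (values on the miR-491-5p beads), the control pull-down (values on the control beads), the miR-491-5p input and the control input. Each group is a single library made from the pooled RNA of 3 experiments, so no ratio between them has a replicate check and intervals cover counting error only. All 4 groups received a transfected tagged microRNA, and cells without transfection are not among these groups.

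Initiation begins when eIF2 delivers the initiator tRNA to the small ribosomal subunit, with eIF1, eIF1A, eIF3 and eIF5 on the same particle. The eIF4 proteins bind the mRNA cap, unwind the leader and bring in that particle, and the eIF4E-binding proteins can block the step. eIF5B then joins the large subunit, eEF1A carries aminoacyl-tRNAs to the ribosome and eEF2 moves the ribosome along the mRNA. Many elongation factor mRNAs, like ribosomal protein mRNAs, begin with a C and a run of pyrimidines, the TOP element, through which mTOR signalling sets their translation. A microRNA guides Argonaute to RNAs that pair with its seed, here bases 2 to 8. The mature strand of the transfected microRNA, from a hairpin on chromosome 9, is shown from RefSeq (GRCh38.p14, chr9:20716120-20716141, plus strand) with the seed in capitals, since the pull-down was built around it.
hsa-miR-491-5p: aGUGGGGAacccuuccaugagg

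The 4 libraries held 61705443 counts on the miR-491-5p beads, 62582646 on the control beads, 59588552 in the miR-491-5p input and 47679684 in the control input. Summed epithelial markers lay between 78394 and 139487 normalised counts in the 4 libraries, led by KRT8 and KRT18, with EPCAM and PAX8 next. Other markers of that list were low, with 9 to 14 raw counts for MSLN and 120 to 206 for KRT7. MUC16 had 84 to 337 raw counts and CDH1 188 to 599. The summed hepatocyte markers, which this line should lack, were at 27.5 normalised counts on the miR-491-5p beads, 20.4 on the control beads, 20.9 in the miR-491-5p input and 3449 in the control input. Fibroblast markers summed to 62.3 on the miR-491-5p beads, 60.4 on the control beads, 306.1 in the miR-491-5p input and 777 in the control input. Their part in the ratios below that use the control input was not tested. The 65 factor genes took 1.67% of all counts on the miR-491-5p beads and 1.22% on the control beads, against 2.02% in the miR-491-5p input and 2.11% in the control input.

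Some of these genes could not be counted well. Reads that fell on more than 1 gene or aligned to more than 1 place were left out of the deposited counts. EEF1G, a subunit of the complex that recharges eEF1A with GTP, had 0 counts in all 4 libraries, and 99.9% of its exon bases lie in other genes of the table as well. Its 0 therefore says nothing of its mRNA. EIF4A1, the main helicase of the cap complex, had only 302 counts on the miR-491-5p beads, 155 on the control beads, 220 in the miR-491-5p input and 120 in the control input, with 48.6% of its exon bases shared. EIF3L, an eIF3 subunit, shared 51.8%, EEF1D 34% and EEF2KMT 29.3%, while EIF5A shared 8.56%. EIF3C has a near-identical copy, EIF3CL, and EIF5A a near-identical intronless copy, EIF5AL1, so reads of such pairs may have been dropped or split. EEF1A1, EEF1B2, EIF1AX, EIF1AY and EIF4A1 were also treated as members with near-identical copies, and the same limit holds for them. The gene listed as EEF1AKMT4-ECE2 is a read-through locus whose reads may come from ECE2. The 7 members that stayed under the minimum were EEF1A2, EEF1G, EIF1AY, EIF2S3B, EIF3CL, EIF4E1B and EIF4EBP3. EEF1A2, the eEF1A form of muscle and neurons, had 30 counts on the miR-491-5p beads, 36 on the control beads, 46 in the miR-491-5p input and 36 in the control input.

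Per exon length, EEF1A1 was the most abundant member, at 4167 TPM (a length-scaled share of the library) in the miR-491-5p input and 4353 in the control input. EEF2 followed at 1426 TPM in the miR-491-5p input and 1602 in the control input. EEF1B2, the nucleotide exchange subunit for eEF1A, stood at 866 TPM in the miR-491-5p input and 908 in the control input. EIF2S2, the beta subunit of eIF2, came next at 631 TPM in the miR-491-5p input and 711 in the control input. The order of these 4 was the same in both inputs.

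The study's own measure, the enrichment, is the miR-491-5p over control ratio in the pull-downs divided by the same ratio in the inputs. It is given on the log2 scale, from counts normalised for library size with a pseudocount of 1. A gene was called where it moved at least 2-fold and its 95% counting interval left out 0. Of the 58 measured factor genes 2 were called higher, EIF5A and EIF5AL1, where 4.46% of all measured genes were. None was called lower, where 5.32% of all measured genes were. The median enrichment of the 58 was 0.15, against 0.00 over all measured genes, and 42 of them lay above 0. The counting interval lay wholly above 0 for 36 members and wholly below 0 for 9, where 35.4% and 35.3% of all measured genes did so. At this depth an interval that leaves out 0 is common, and the call at 2-fold is the stricter reading.

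EIF5A, which binds the ribosome at slow peptide bonds and carries hypusine, was called from deep counts. Its normalised counts were 15157 on the miR-491-5p beads, 6516 on the control beads, 11272 in the miR-491-5p input and 16174 in the control input. The miR-491-5p pull-down lay above its own input and the control pull-down below its own, while the miR-491-5p input was the lower input. The enrichment was 1.74 (95% interval 1.69 to 1.79), or 3.34-fold, the 80th highest of 10771 measured protein-coding genes. It came from both sides of the measure, with a pull-down ratio of 1.22 and an input ratio of -0.52 (-0.56 to -0.48). The gene spans chr17:7306999-7312463 on hg38. EIF5AL1, on chromosome 10, showed the same pattern at far lower counts, with 112 raw counts on the miR-491-5p beads, 44 on the control beads, 50 in the miR-491-5p input and 64 in the control input. Its enrichment was 1.84 (1.11 to 2.57), and since its sequence is nearly that of EIF5A, it may not be a separate observation. EIF5A2, which encodes a related protein, had 946 normalised counts on the miR-491-5p beads, 1242 on the control beads, 1855 in the miR-491-5p input and 1609 in the control input. It had the lowest enrichment of the measured factor genes, at -0.60 (-0.75 to -0.44).

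**Figure D1:**
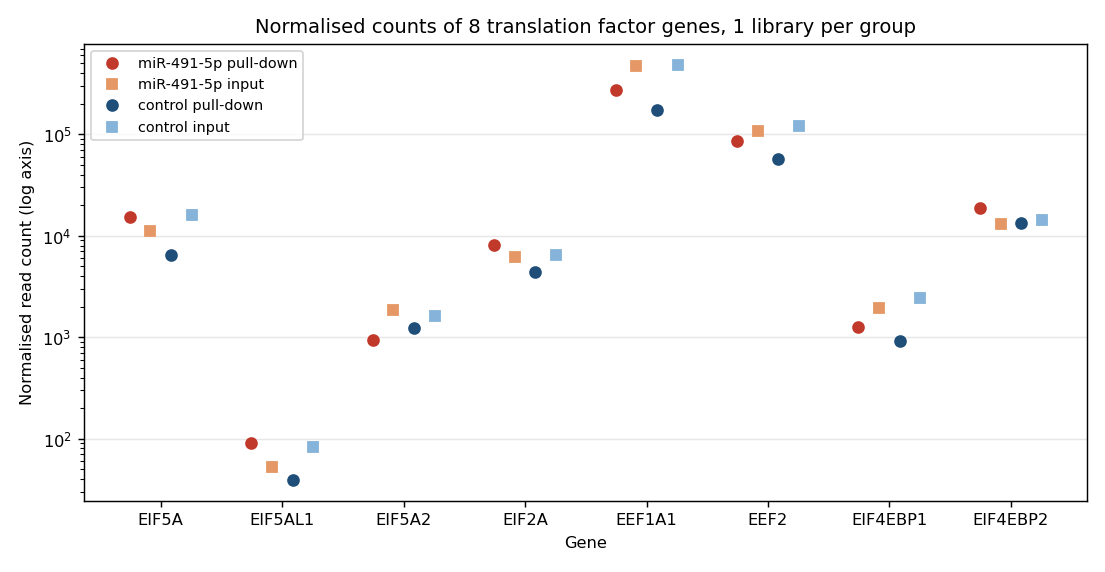
Normalised counts (log axis) of selected factor genes in the 4 libraries, 1 point a library. EIF5A sits at 15157 on the miR-491-5p beads and 6516 on the control beads, whereas EIF5A2 sits at 946 and 1242.

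EIF2A, a factor that can bring initiator tRNA to the ribosome without eIF2, lay just inside 2-fold. It had 8138 normalised counts on the miR-491-5p beads, 4356 on the control beads, 6119 in the miR-491-5p input and 6448 in the control input. As with EIF5A, it exceeded its own input only on the miR-491-5p beads. Its enrichment was 0.98 (0.90 to 1.05), and it passes 2-fold, at 1.16, when libraries are scaled by total counts. That scaling raised the median of all measured genes from 0.00 to 0.18 as well, and the share called higher from 4.46% to 7.05%. The subunits of eIF2 itself, which carries the initiator tRNA, stayed near 0 in enrichment. EIF2S1, the alpha subunit phosphorylated in the integrated stress response, had an enrichment of 0.045 and 11219 normalised counts on the miR-491-5p beads, 11363 on the control beads, 19600 in the miR-491-5p input and 20482 in the control input. For both pairs of libraries its values were close. EIF2S2 had 16889 normalised counts on the miR-491-5p beads, 19407 on the control beads, 31561 in the miR-491-5p input and 35420 in the control input, an enrichment of -0.034. EIF2S3, the GTP-binding gamma subunit, had 9821 normalised counts on the miR-491-5p beads, 7841 on the control beads, 15082 in the miR-491-5p input and 13432 in the control input, an enrichment of 0.16. The 5 genes of eIF2B, the exchange factor of eIF2, had enrichments between -0.13 for EIF2B3 and 0.35 for EIF2B5.

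Among the scanning factors EIF1, which guards start codon choice, had an enrichment of 0.06, and EIF1AX one of 0.044. In eIF3, the large scaffold on the small subunit, 13 of 14 genes were measured and their median enrichment was 0.19. EIF3G, an RNA-binding subunit, was the highest of them. It had 1868 normalised counts on the miR-491-5p beads, 1273 on the control beads, 2850 in the miR-491-5p input and 3364 in the control input, an enrichment of 0.79 (0.67 to 0.91). EIF3I followed at 0.53 and EIF3F at 0.46, while EIF3A, the largest subunit, was at 0.092 and EIF3E at -0.038.

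The cap-binding group was split. EIF4E, which holds the cap, had 8498 normalised counts on the miR-491-5p beads, 8267 on the control beads, 8048 in the miR-491-5p input and 8525 in the control input, values close to one another. Its enrichment was 0.12 (0.061 to 0.18). EIF4G1, the scaffold that joins EIF4E to eIF3, had an enrichment of 0.28. EIF4G2, a scaffold relative that does not bind EIF4E, had 39218 normalised counts on the miR-491-5p beads, 41585 on the control beads, 72270 in the miR-491-5p input and 53279 in the control input. The 2 pull-downs were close and the miR-491-5p input was the higher input, which gave the second lowest enrichment of the factor genes, -0.52 (-0.55 to -0.50). EIF4A2, the second eIF4A helicase, was at -0.42 with 12378 normalised counts on the miR-491-5p beads, 15327 on the control beads, 15263 in the miR-491-5p input and 14120 in the control input. None of the 3 measured repressors of EIF4E was called, and EIF4ENIF1, which carries EIF4E into the nucleus, was at 0.17. EIF4EBP1, which releases EIF4E when mTOR phosphorylates it, had 1254 normalised counts on the miR-491-5p beads, 914 on the control beads, 1949 in the miR-491-5p input and 2426 in the control input. Its enrichment was 0.77 (0.63 to 0.92). EIF4EBP2, its close relative, had 18988 normalised counts on the miR-491-5p beads, 13347 on the control beads, 13066 in the miR-491-5p input and 14244 in the control input. At an enrichment of 0.63 (0.59 to 0.68) it too stayed under 2-fold.

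Of the late initiation factors, EIF5, which makes eIF2 hydrolyse its GTP, had 35663 normalised counts on the miR-491-5p beads, 38474 on the control beads, 50639 in the miR-491-5p input and 53892 in the control input. The microRNAs differed little for it in either kind of library, and its enrichment was -0.02. EIF5B had 10755 normalised counts on the miR-491-5p beads, 9862 on the control beads, 8968 in the miR-491-5p input and 9714 in the control input, with its lowest value in the miR-491-5p input and an enrichment of 0.24. EIF6, which keeps the large subunit from joining too early, had 2524 normalised counts on the miR-491-5p beads, 1784 on the control beads, 3682 in the miR-491-5p input and 4010 in the control input. Its enrichment was 0.62 (0.52 to 0.73). In elongation, EEF1A1 had 270931 normalised counts on the miR-491-5p beads, 173460 on the control beads, 467019 in the miR-491-5p input and 485751 in the control input. EEF2 had 86178 normalised counts on the miR-491-5p beads, 56963 on the control beads, 108229 in the miR-491-5p input and 121031 in the control input. For both genes the 2 inputs were close and the control pull-down was the lowest library. Their enrichments were 0.70 and 0.76. The eEF1A exchange subunits did not share this, with enrichments of 0.063 for EEF1B2 and 0.027 for EEF1D. EEF2K, the kinase that switches eEF2 off, had 3430 normalised counts on the miR-491-5p beads, 3374 on the control beads, 3838 in the miR-491-5p input and 4146 in the control input, an enrichment of 0.14. EEF1AKMT2, which methylates eEF1A, was the third lowest factor gene at -0.45, with 1138 normalised counts on the miR-491-5p beads, 1609 on the control beads, 1186 in the miR-491-5p input and 1227 in the control input.

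**Figure D2:**
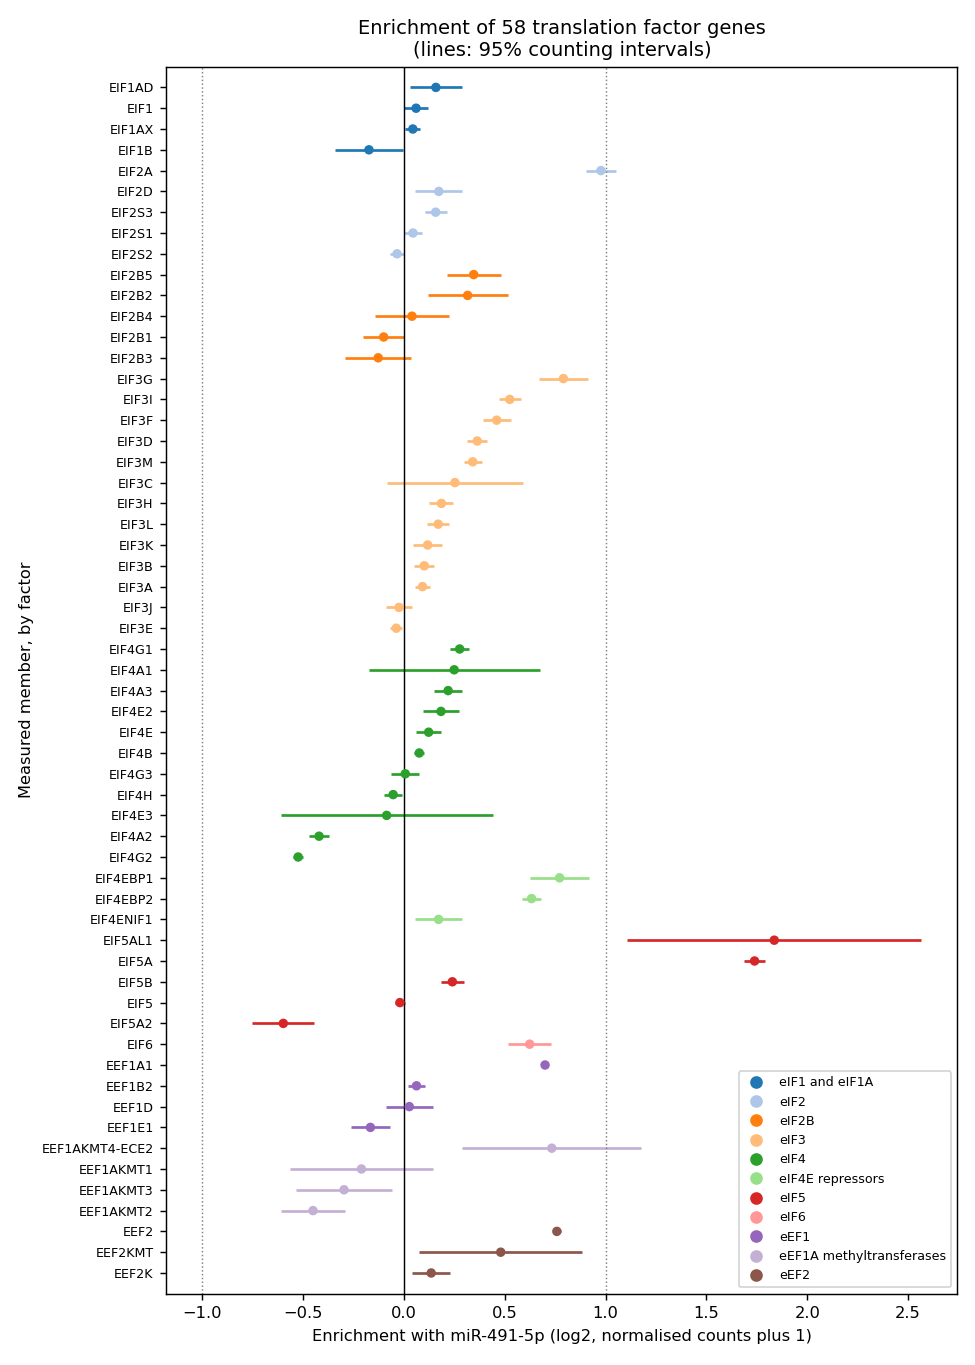
Enrichment (log2) of the 58 measured factor genes grouped by factor, each point with its 95% counting interval. EIF5A and EIF5AL1 are the 2 points beyond 2-fold, at 1.74 and 1.84, with EIF2A next at 0.98.

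The pull-downs alone gave the same 2 calls. In the miR-491-5p pull-down over the control pull-down, EIF5A stood at 1.22 and EIF5AL1 at 1.19, where 2.5% of all measured genes were called higher and 3.17% lower. No factor gene was called lower, and the median of the 58 was 0.10 against 0.01 over all measured genes. The counting interval lay above 0 for 32 factor genes, against 38.7% of all measured genes, and below 0 for 13, against 37.5%.

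No call was made between the inputs. In the miR-491-5p input over the control input none of the 58 factor genes was called, where 0.727% of all measured genes were called higher and 0.513% lower. The median was -0.07 against -0.01 over all measured genes, and the counting interval lay below 0 for 32 members, against 29.5% of all measured genes, and above 0 for 12, against 29%. Since the cells were measured in bulk, fewer cells of a kind and less RNA per cell cannot be told apart. The lowest input ratios were those of EIF5AL1 at -0.64, EIF5A at -0.52 and EEF2KMT, a methyltransferase for eEF2, at -0.43. EEF2KMT had 189 normalised counts in the miR-491-5p input and 254 in the control input, beside 177 on the miR-491-5p beads and 171 on the control beads. The highest were EIF4A1 at 0.57 (0.25 to 0.89), EEF1AKMT1 at 0.51 and EIF4G2 at 0.44. EEF1AKMT1, another eEF1A methyltransferase, had 400.2 normalised counts in the miR-491-5p input and 281 in the control input, beside 222 on the miR-491-5p beads and 180.3 on the control beads.

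Normalised counts of most factor mRNAs were lower on the beads than in the input with either microRNA. Such counts give relative levels and not the amount of RNA recovered. The bead ratio, pull-down over input within a transfection, had a median over the 58 of -0.55 on miR-491-5p beads and -0.78 on control beads, against -0.15 over all measured genes in both. On miR-491-5p beads the counting interval lay below 0 for 44 factor genes, against 51.1% of all measured genes, and above 0 for 11, against 30.3%. On control beads it lay below 0 for 48, against 49.6%, and above 0 for 5, against 33.9%. With miR-491-5p 6 factor genes were called lower and 1 higher, where 4.96% of all measured genes were called lower and 5.34% higher. With the control 17 were called lower and none higher, where 10% of all measured genes were called lower and 8.61% higher. Scaled by total counts, 1 was called lower and 2 higher on miR-491-5p beads, where 1.02% and 10.3% of all measured genes were. On control beads 10 were then called lower and 0 higher, where 6.46% and 11% were. Here too each ratio compares 2 libraries and not replicated conditions.

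Both transfections together allowed a test of pull-down against input with the transfection as a block, in edgeR's quasi-likelihood model over all measured genes, with 1 residual degree of freedom. The pairs carried different microRNAs, so their spread holds any microRNA effect as well. At an adjusted p (Benjamini-Hochberg) under 0.05 and a change of at least 2-fold, 12 factor genes fell and none rose, where 5.23% of all measured genes fell and 4.26% rose. The 12 were EEF1A1, EEF1B2, EEF1D, EIF1, EIF1B, EIF3E, EIF3G, EIF3H, EIF3I, EIF3K, EIF3M and EIF4EBP1. With no minimum size, 20 fell and 1 rose, where 10.2% of all measured genes fell and 5.33% rose. At an unadjusted p under 0.05, 32 had lower and 1 had higher values, and DESeq2's Wald test gave 12 lower and 0 higher at 2-fold. For these counts no share of all measured genes was computed, so they cannot be read as an excess. Of all 12662 measured genes, 7399 had a fitted change below 0. With edgeR's TMM factors 7 were lower at 2-fold. With libraries scaled by total counts 2 were, EEF1B2 and EIF1B, so the count rests on the scaling. Shares of all measured genes were not computed for these scalings either. Total counts moved the median fitted change of all measured genes to 0.10, from -0.13.

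EIF1B, a close relative of EIF1, had the lowest mean of both bead ratios. It had 675 normalised counts on the miR-491-5p beads against 1816 in its input, and 818 on the control beads against 1950 in its input. Both pull-downs lay below both inputs, and the fitted log2 change was -1.34 (edgeR adjusted p = 0.017). EEF1B2 had 12864 normalised counts on the miR-491-5p beads against 31259 in its input, and 12856 on the control beads against 32625 in its input. It fell by 1.31 on the log2 scale (edgeR adjusted p = 0.019), with nearly the same bead ratio in both transfections. EIF3H, a subunit of eIF3, had 6500 normalised counts on the miR-491-5p beads against 13375 in its input, and 5966 on the control beads against 13968 in its input, a fitted change of -1.13 (edgeR adjusted p = 0.021). EEF1A1 changed by -1.14 (edgeR adjusted p = 0.0497, just under the threshold), with bead ratios of -0.79 on miR-491-5p beads and -1.49 on control beads. EEF2 did not pass, with bead ratios of -0.33 on miR-491-5p beads and -1.09 on control beads (edgeR adjusted p = 0.14).

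**Figure D3:**
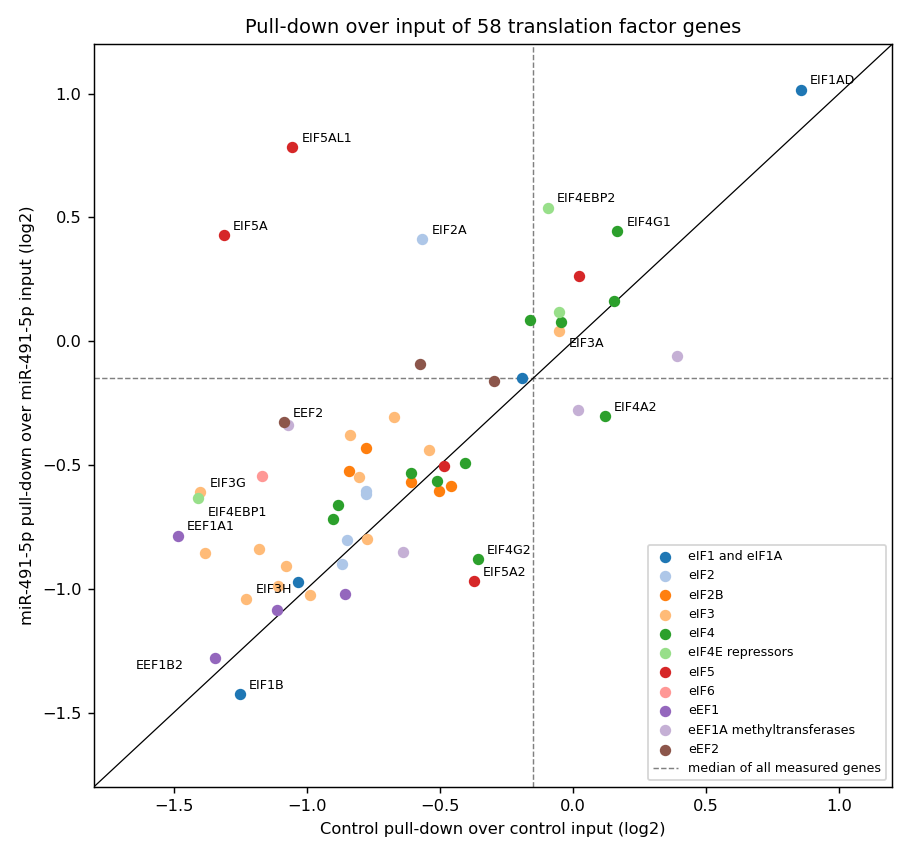
Bead ratio (log2, pull-down over input) of the 58 measured factor genes with miR-491-5p (vertical axis) and with the control microRNA (horizontal axis); dashed lines mark the medians of all measured genes. EIF5A sits at 0.43 on miR-491-5p beads and -1.31 on control beads, and EIF1B and EEF1B2 lie low on both axes.

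A few factor genes had bead ratios above 0. EIF1AD, named for its EIF1A-like domain, had 2764 normalised counts on the miR-491-5p beads against 1367 in its input, and 3051 on the control beads against 1684 in its input. Both pull-downs lay above both inputs, and it was the 1 factor gene that rose in the test with no minimum size, by 0.94 (edgeR adjusted p = 0.027). EIF4G1 had 17308 normalised counts on the miR-491-5p beads against 12732 in its input, and 16594 on the control beads against 14786 in its input, and did not pass (edgeR adjusted p = 0.4). EIF5B had bead ratios of 0.26 on miR-491-5p beads and 0.022 on control beads. EIF4EBP2 had a bead ratio of 0.54 for miR-491-5p and of -0.094 for the control.

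Both bead intervals left out 0 on opposite sides for 6 factor genes. In 5 of the 58, EIF5A, EIF5AL1, EIF2A, EIF4EBP2 and EIF3A, the miR-491-5p ratio was the one above 0, as in 5.57% of all measured genes. In 1, EIF4A2, it was the control ratio, as in 8.39%. With libraries scaled by total counts the control ratio of EIF4EBP2 became 0.047, that of EIF3A 0.089 and the miR-491-5p ratio of EIF4A2 0.017. Only EIF5A, EIF5AL1 and EIF2A of the 6 then had ratios of opposite sign.

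The median bead ratio varied between groups of factor genes. The groups were set by gene symbol and are not all strict complexes, with EEF1E1 counted in eEF1 and EIF4A3 in eIF4. The 13 measured eIF3 genes had median bead ratios of -0.80 on miR-491-5p beads and -0.99 on control beads. In the edgeR test 6 of them fell at least 2-fold, where 5.23% of all measured genes did. With libraries scaled by total counts no eIF3 gene did, but the share of all measured genes was not computed for that scaling. EIF3A was the nearest to 0 of them, at 0.041 on miR-491-5p beads and -0.052 on control beads. Also nearer 0 than the median of the complex on both were EIF3D at -0.31 and -0.67 and EIF3B at -0.44 and -0.54. The same held for EIF3F at -0.38 and -0.84 and EIF3C at -0.55 and -0.80. The 11 measured eIF4 genes had medians of -0.49 on miR-491-5p beads and -0.36 on control beads. The 4 measured eEF1 genes, of 6, had medians of -1.05 on miR-491-5p beads and -1.23 on control beads, and the 5 eIF2B genes -0.57 and -0.61. The subunits of eIF2 had bead ratios on miR-491-5p and on control beads of -0.80 and -0.85 for EIF2S1, -0.90 and -0.87 for EIF2S2 and -0.62 and -0.78 for EIF2S3. Differences between these groups were not tested.

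Bead ratios were somewhat higher for longer genes. Across the 58 factor genes Spearman's rho between exon length and the bead ratio was 0.26 on miR-491-5p beads and 0.38 on control beads, and over all measured genes it was 0.25 and 0.29. These are descriptions across genes that share 4 libraries. The 2 bead ratios had a rho of 0.62 with each other over the same genes. The part of length in the low bead ratios was not tested.

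The genes listed from background knowledge as TOP mRNAs had lower median bead ratios than the other factor genes. The 10 measured of 11 listed had medians of -0.85 on miR-491-5p beads and -1.08 on control beads, against -0.53 and -0.62 for the other 48. In the edgeR test 5 of the 10 and 7 of the 48 fell at least 2-fold, where 5.23% of all measured genes did. With libraries scaled by total counts only EEF1B2 of the listed genes and EIF1B of the others did. The share of all measured genes was not computed for that scaling. The difference between listed and other genes was not tested. The annotated starts of some members are shown because they carry or lack the letters of this element. Each window holds 30 bases of RefSeq (GRCh38.p14), 8 before the annotated start and 22 from it, read along the gene's own strand. Capitals mark a C at the start and the unbroken run of C and T that follows it, where the run has at least 5 bases in all. EEF1A1 (chr6:73521011-73521040, minus strand) and EEF2 (chr19:3985442-3985471, minus strand) are elongation factors. EIF2A (chr3:150546779-150546808, plus strand), EIF3D (chr22:36529145-36529174, minus strand), EIF3F (chr11:7987329-7987358, plus strand) and EIF4B (chr12:53006448-53006477, plus strand) are initiation factors with such a start, and EIF5A (chr17:7306991-7307020, plus strand) is without one. EEF1B2 (chr2:206159601-206159630, plus strand) is a listed TOP mRNA whose annotated start does not show the element.
EEF1A1: tgaacgttCTTTTTCgcaacgggtttgccg
EEF2: tcagcgttCTCTTCCgccgtcgtcgccgcc
EIF2A: agcggtttCTCTTTCCgggacaacatggcg
EIF3D: catgtttcCTCTTTTCCTggtttctcaaga
EIF3F: tccgcctcCTTCTTTCTCgacaagatggcc
EIF4B: atccgggtCTTTTgcgttctctttccctct
EIF5A: ggaacccgaccacactagcgcgctagaaga
EEF1B2: gtggccccagcctcgaggccgggcgtcttc

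Such a start was present in 12 of the 52 factor genes with a RefSeq window (23.1%), against 4.6% of the 15843 protein-coding windows. Of the 6 listed TOP mRNAs with a window 4 had it, and EEF1B2 and EEF1G did not. Among the measured factor genes, the 11 with it had median bead ratios of -0.53 on miR-491-5p beads and -0.78 on control beads, against -0.52 and -0.53 for those without it. Their median enrichment was 0.34 against 0.11. EIF2A, next in enrichment after EIF5A and its copy, has such a start, and EIF5A has none. The complement of the miR-491-5p seed, TCCCCAC, searched on the sense strand, was in the first 50 transcribed bases of none of these 52 genes and of 0.555% of the 15843. The remainder of these transcripts was not searched.

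Genes that work with these factors were compared by lists drawn up from background knowledge. The 73 measured cytosolic ribosomal protein genes had lower bead ratios, with medians of -1.03 on miR-491-5p beads and -1.36 on control beads, and 53 fell at least 2-fold in the edgeR test, where 5.23% of all measured genes did. The 22 cytosolic aminoacyl-tRNA synthetase genes, which charge the tRNAs that eEF1A carries, had medians of -0.34 on miR-491-5p beads and -0.64 on control beads, and none was called in the enrichment. Of the 36 measured regulators and partners, from poly(A)-binding proteins to release factors, 3 were called lower in enrichment and none higher, where 5.32% and 4.46% of all measured genes were. PAIP1, which binds the poly(A)-binding protein and eIF4A, had 6971 normalised counts on the miR-491-5p beads, 30131 on the control beads, 9293 in the miR-491-5p input and 6971 in the control input. The control pull-down alone was high, and the enrichment was -2.53 (-2.59 to -2.47). ABCE1, which splits ribosomes after termination, was at -1.76 and ETF1, the release factor that reads stop codons, at -1.13. LARP1, which binds TOP mRNAs, was the highest partner at 0.88.

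**Figure D4:**
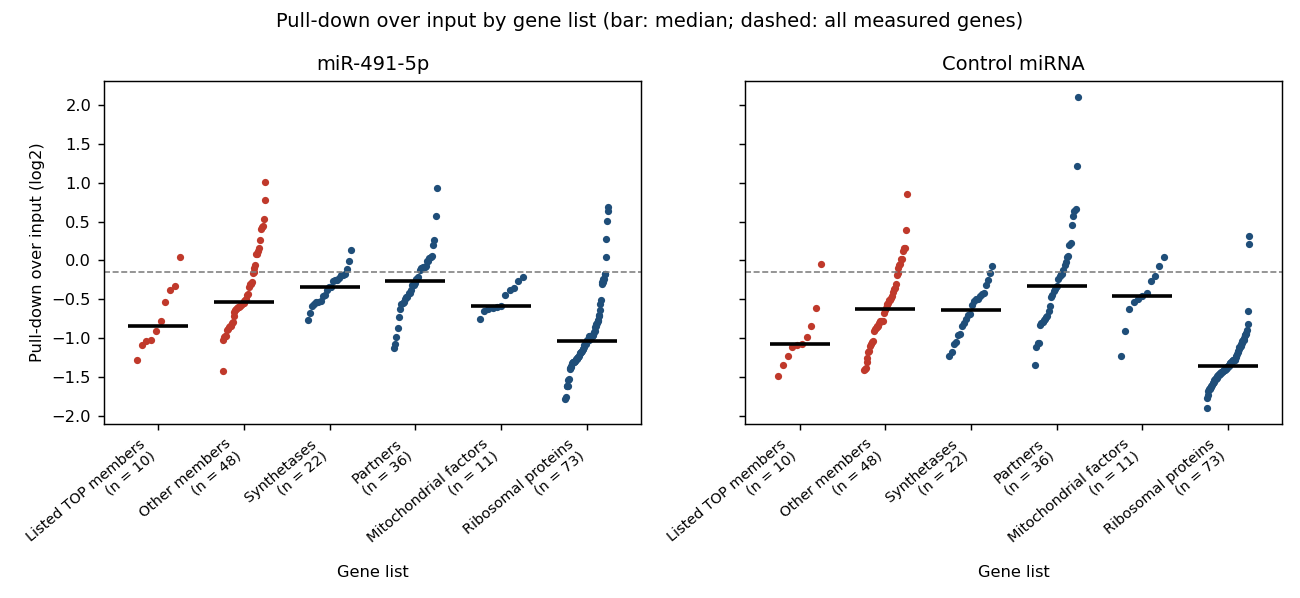
Bead ratio (log2) of each gene by list, on miR-491-5p beads (left) and control beads (right), with a bar at the median of each list and a dashed line at the median of all measured genes. The listed TOP members have medians of -0.85 on miR-491-5p beads and -1.08 on control beads, between the other members at -0.53 and -0.62 and the ribosomal proteins at -1.03 and -1.36.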

How the data were processed

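Per the labels' protocols, libraries were made with a stranded total RNA kit. The authors deposited 1 table of raw read counts per gene and, per the file headers, made it with featureCounts 1.5.0-p1 on hg38 with GENCODE 24 annotation, as paired-end fragments without regard to strand. Without strand, reads of overlapping antisense genes cannot be told apart. STAR and DESeq2 1.10.1 are named in the submitters' processing notes, and other aligner settings are not given in the sources used here.

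From the deposited counts, size factors were computed with DESeq2 1.42.0 and every log2 ratio used these scaled counts plus 1. Standard errors came from the counts with 0.5 added, and intervals span 1.96 standard errors either side. They cover counting error only, since reads amplified by PCR, here with no molecular identifiers, are not separate molecules. Genes whose normalised counts averaged 50 or more were kept, and were called at 2-fold with an interval that leaves out 0. The test over both transfections used edgeR 4.0.16. Levels per length divide counts by the table's exon length. The ratios and the edgeR test were run on simulated counts with known changes. The ratio simulation held counting error only. The edgeR simulation gave both transfections the same pull-down change, whereas the real pairs carried different microRNAs.

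The table holds gene IDs without symbols. RefSeq genes were matched to it by position, and 65 of 66 factor genes matched: 16 by both ends, 47 by overlap, EIF3E by 1 end and EIF2B5 by exon boundaries. Groups came from the labels. Alternatives were TMM factors, total counts, a pseudocount of 5, minima of 10 or none, DESeq2's Wald test, and leaving out near-identical copies. Leaving out members that share exons, or the loosely matched ones, was added after seeing the data. Members and lists were chosen with earlier results of these data known. Members were named where called, where highest or lowest in the enrichment, the input ratio or both bead ratios, where most abundant per length, or as core factors. List genes were named where called in the enrichment or highest or lowest of their list.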

Additional observations from a re-analysis of the deposited data

Results flagged for a closer look

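For 6 factor genes the bead ratio, pull-down over input on the log2 scale, lay on opposite sides of 0 in the 2 transfections. EIF5A was at 0.43 on miR-491-5p beads and -1.31 on control beads. EIF5AL1 was at 0.78 on miR-491-5p beads and -1.05 on control beads, from counts that may belong to EIF5A. EIF2A was at 0.41 on miR-491-5p beads and -0.57 on control beads. EIF4EBP2 was at 0.54 on miR-491-5p beads and -0.094 on control beads. EIF3A was at 0.041 on miR-491-5p beads and -0.052 on control beads, both close to 0. EIF4A2 alone ran the other way, at -0.30 on miR-491-5p beads and 0.12 on control beads. With total counts EIF4EBP2 moved to 0.047 and EIF3A to 0.089 on control beads, and EIF4A2 to 0.017 on miR-491-5p beads, which ends the opposite signs of these 3. Each side had a counting interval that left out 0. The first pattern held for 5 of the 58 measured factor genes (8.62%) against 5.57% of all measured genes, and the reverse for 1 (1.72%) against 8.39%. With 1 library in each group the difference between transfections was not tested.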

How the results depend on the processing

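The scaling of the libraries mattered most. With total counts the factor genes' medians became 0.33 for the enrichment, 0.25 for the pull-down ratio, -0.23 for the miR-491-5p bead ratio and -0.64 for the control bead ratio, while those of all measured genes became 0.18, 0.17, 0.17 and -0.01. On miR-491-5p beads 1 was then called lower and 2 higher, where 1.02% and 10.3% of all measured genes were, and on control beads 10 were called lower, where 6.46% were. In the edgeR test the median of the factor genes became -0.38, from -0.61, while that of all measured genes became 0.10, from -0.13. At 2-fold 1 factor gene was then higher and 2 lower, and TMM factors left 7 lower. Shares of all measured genes called in the edgeR test were not computed for these scalings. Over all measured genes, total counts moved the share of calls that were higher to 66.7% against 45.6% for the enrichment, to 67% against 44% for the pull-down ratio, to 91% against 51.8% for the miR-491-5p bead ratio and to 62.9% against 46.2% for the control bead ratio. A minimum of 10, or none, added 1 lower call in the enrichment, EIF3CL. The control bead median became -0.67 with no minimum, without near-identical copies or without members that share exons, and -0.72 without the loosely matched members. Without the members with near-identical copies, among them EIF5A, EIF5AL1, EEF1A1 and EEF1B2, 0 members were called higher in the enrichment or the pull-down ratio. Under the alternatives 122 summary values stayed in place and the 19 given here moved, and none turned the direction of a called value. Among values followed for single named genes, 547 stayed in place and 73 moved. Signs of uncalled members turned with total counts for 10 of the 58 in the enrichment, 10 in the pull-down ratio, 1 in the input ratio, 7 on miR-491-5p beads and 4 on control beads, and with TMM factors for 1 each in the enrichment, the pull-down ratio and the input ratio. Among those turned by total counts, the main counting interval had left out 0 for 4 in the enrichment and 6 in the pull-down ratio. It had also done so for 5 on miR-491-5p beads and 2 on control beads. The edgeR test already pairs pull-down with input by transfection. No paired analysis was possible of the microRNAs because each group holds 1 library. Leaving out a transfection would leave the edgeR test no residual degrees of freedom. Among measured members the counting error of the enrichment was widest for EIF5AL1, then EIF4E3.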

Other observations

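The mitochondrial counterparts of these factors, which serve the ribosomes inside mitochondria, had a median enrichment of -0.11 over 11 measured genes, and none was called. MTIF3, a mitochondrial initiation factor, was highest at 0.47 and TSFM, the exchange factor of the mitochondrial elongation factor, lowest at -0.41. Their bead ratios had medians of -0.59 on miR-491-5p beads and -0.45 on control beads. Among the cytosolic ribosomal proteins 8 of 73 were called higher in the enrichment and none lower, where 4.46% and 5.32% of all measured genes were. Among the synthetases FARSA was highest at 0.83 and NARS1 lowest at -0.21.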
